A study of Homo sapiens with 3 samples.

Results

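The genes described here are 10 components of the Hippo signalling pathway: its kinase core (STK3, STK4, SAV1, MOB1A, MOB1B and LATS1) and its upstream regulators (NF2, AMOT, AMOTL2 and WWC1). They were chosen by gene symbol as parts of the pathway, with no threshold on their values, and each was read from the brightest probe set that the platform annotation gives to its symbol. Of the 10 genes, 9 had a named probe set, 1 each, out of 14884 genes named on the array. LATS1 had no named probe set and was not measured here. The RNA came from A549 cells, a widely used established line from a human lung carcinoma, 48 h after lipid transfection. The siRNA was a control (siNC) or was directed at TAZ (siTAZ) or at YAP (siYAP), and the cells of all groups were otherwise treated alike as far as the labels say. Each group had 1 array, so no value carries an error, no difference was checked against a spread between cultures, and no test was made. The sources used here do not give the number or the sequences of the siRNAs behind each name.

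The Hippo pathway is a kinase cascade that restrains the transcriptional co-activators YAP and TAZ. The MST kinases (encoded by STK3 and STK4), held by the scaffold SAV1, phosphorylate the LATS kinases and their MOB1 adaptors, and LATS then phosphorylates YAP and TAZ, which keeps them out of the nucleus or marks them for breakdown. NF2, WWC1 and the angiomotins act at the cell cortex and junctions, where they recruit or activate LATS or bind YAP and TAZ directly. Some of these restraining genes, AMOTL2 and NF2 among them, have been described as targets of YAP and TAZ themselves, which closes a negative feedback loop. The question behind the series was the set of genes regulated through TAZ or YAP, and the values below show the level of the upstream part of the pathway when either was reduced.

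The siRNA targets were lower on their own arrays, by unequal amounts. YAP1 was 2.99-fold lower with siYAP, and WWTR1 was 1.61-fold lower with siTAZ. YAP1 had 2 named probe sets, of which only the brightest is given here, and WWTR1 had 1. YAP1 read 8.45 with siNC, 8.24 with siTAZ and 6.87 with siYAP, and WWTR1, which encodes TAZ, read 6.50, 5.81 and 6.50 (RMA levels, log2). All levels are RMA values on a log2 scale, which serve to compare arrays within a gene and not genes with each other. The 3 arrays had medians of 4.26 to 4.28 over 53617 probe sets. Of the 9 A549 epithelial markers listed, 5 were named and all 5 lay above 4.27, the level used as the filter on dim probe sets (the median of all probe set means). Their differences from the control ran from -0.42 (KRT7) to 0 on the siTAZ array and from -0.042 to 0.045 on the siYAP array (log2). Of 11 markers of leukocytes, endothelium and fibroblasts, 4 were named: CD14 (4.49 to 4.55), VWF (4.42 on every array), PECAM1 (3.60 to 3.90) and the fibroblast marker LUM (7.45, 8.14 and 8.10 with siNC, siTAZ and siYAP). CD14, VWF and LUM also lay above 4.27, so passing that level did not set the epithelial markers apart. LUM was higher on both knockdown arrays, and its part in the results below was not tested.

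**Figure D1:**
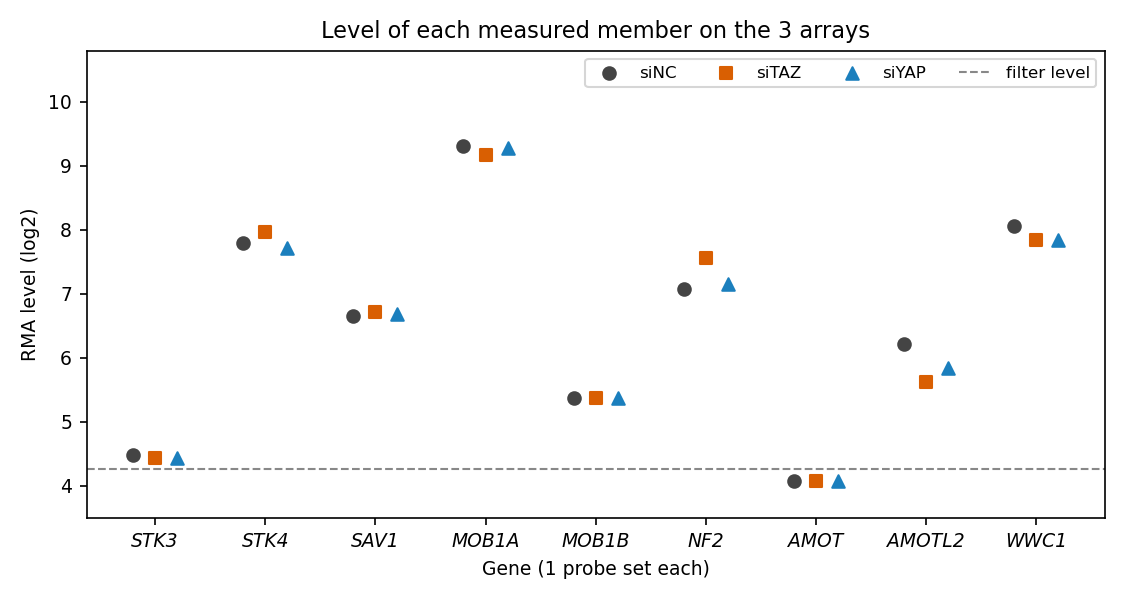
RMA level (log2, vertical axis) of the 9 measured genes on the siNC (circle), siTAZ (square) and siYAP (triangle) arrays, 1 probe set per gene and 1 array per group, with the filter level as a dashed line. AMOTL2 is highest with siNC, NF2 is highest with siTAZ, AMOT lies under the filter level, and heights are not comparable between genes.

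Few of the measured genes differed between the arrays by much. Of the 8 that passed the filter, 1 (AMOTL2) lay below the control by 1.5-fold or more on the siTAZ array and 0 lay above it by that much, against 1.02% (lower) and 0.762% (higher) of all 10768 kept genes. A single gene is too few to set the members apart from that background. On the siYAP array 0 of 8 were past 1.5-fold in either direction, against 0.381% (lower) and 0.52% (higher) of kept genes. The 8 kept genes had a median difference of -0.022 on the siTAZ array and -0.038 on the siYAP array (log2), where the median over all kept genes was 0 in both. In the siTAZ comparison 4 were lower, 3 higher and 1 identical, and in the siYAP comparison 5 were lower, 2 higher and 1 identical. Over all kept genes the shares were 21.7% lower, 29.7% higher and 48.5% identical with siTAZ, and 21.7%, 27.0% and 51.3% with siYAP. These comparisons share the control array, so their counts are not independent of each other. The RNA was taken in bulk, so fewer cells with a transcript and less of it per cell cannot be told apart.

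AMOTL2, an angiomotin family protein of cell junctions that binds YAP and TAZ, showed the lowest difference from control of the members. Its level was 6.21 with siNC, 5.62 with siTAZ and 5.84 with siYAP. It was highest in the control and lowest after TAZ knockdown. The siTAZ level was 66.1% of the control (-0.60 on the log2 scale, 1.51-fold lower), which ranked 106 from the lowest of 10768 kept genes and lay just past the 1.5-fold threshold of 0.58. The siYAP level was 77.0% of the control (-0.38, 1.30-fold lower), which ranked 159 from the lowest. Of all kept genes, 1.69% differed from the control by at least as much in either direction on the siTAZ array and 3.03% on the siYAP array. Between the knockdown arrays AMOTL2 was 0.22 higher with siYAP than with siTAZ. When the reference was the average of siNC and the other knockdown, the AMOTL2 differences were -0.41 for siTAZ, no longer past 1.5-fold, and -0.078 for siYAP.

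AMOT, the founding member of the same family, read 4.07 on all 3 arrays and lay under the filter level. That exact value was also held by 301 other probe sets on all 3 arrays, and by 372 others on the control array alone. The AMOT reading therefore does not separate this gene from many other dim probe sets. AMOTL2 shared its value with 0 other probe sets on each array.

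Because AMOTL2 had the lowest difference from control of the members on either knockdown array, both of its RefSeq promoter windows are shown (GRCh38.p14, 250 bases before to 50 after a transcript start, 5′ to 3′), beside the first window of NF2, which differed in the other direction on the siTAZ array. Capitals mark matches to GGAATG, the core letters bound by TEAD factors, or to TGANTCA, the AP-1 letters, each searched on both strands.
AMOTL2 first window, chr3:134375368-134375667, minus strand: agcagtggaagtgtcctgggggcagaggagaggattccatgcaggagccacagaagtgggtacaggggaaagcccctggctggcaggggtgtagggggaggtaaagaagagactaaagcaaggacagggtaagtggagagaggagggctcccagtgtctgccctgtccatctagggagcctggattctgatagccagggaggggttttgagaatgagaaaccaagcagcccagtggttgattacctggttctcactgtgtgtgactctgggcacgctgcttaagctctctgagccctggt
AMOTL2 second window, chr3:134374398-134374697, minus strand: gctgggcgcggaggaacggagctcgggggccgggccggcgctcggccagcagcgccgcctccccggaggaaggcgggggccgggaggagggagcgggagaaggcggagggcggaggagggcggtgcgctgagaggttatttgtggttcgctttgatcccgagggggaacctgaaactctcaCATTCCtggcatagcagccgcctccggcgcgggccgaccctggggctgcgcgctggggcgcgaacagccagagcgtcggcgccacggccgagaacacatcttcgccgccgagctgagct
NF2 first window, chr22:29603383-29603682, plus strand: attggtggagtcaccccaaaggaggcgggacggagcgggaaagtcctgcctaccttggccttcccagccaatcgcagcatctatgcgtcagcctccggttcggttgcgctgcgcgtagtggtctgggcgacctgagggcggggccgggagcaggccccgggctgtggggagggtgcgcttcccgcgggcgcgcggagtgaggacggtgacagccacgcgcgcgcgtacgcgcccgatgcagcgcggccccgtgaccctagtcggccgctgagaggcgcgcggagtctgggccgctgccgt
The second AMOTL2 window held 1 TEAD match, read on the opposite strand, whose first printed base lies 69 bases before the start. The first AMOTL2 window and both NF2 windows held neither motif. Over the 35116 promoter windows of the RefSeq table, all of 300 bases, 14.0% held GGAATG on either strand and 7.71% held TGANTCA. The windows of STK4, SAV1, MOB1A, AMOT and WWC1 had 0 matches to either motif, and MOB1B had 1 AP-1 match and no TEAD match. Of the 2 windows of LATS1, which was not measured on the arrays, 1 held an AP-1 match and neither a TEAD match. STK3 had no entry under its symbol. A match is a description of these letters and not evidence of binding.

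NF2, which encodes merlin, a membrane and cytoskeleton linker that recruits LATS kinases, had the largest positive difference of the members. Its level was 7.08 with siNC, 7.56 with siTAZ and 7.15 with siYAP. The siTAZ array stood above the other arrays, which differed by 0.068. The siTAZ level was 139% of the control (0.48 on the log2 scale, 1.39-fold higher), which ranked 155 from the highest of the kept genes but lay under 1.5-fold. Of all kept genes, 3.11% differed from the control by at least 0.48 in either direction on the siTAZ array. The NF2 difference of 0.068 on the siYAP array was matched or passed in size by 29.9% of kept genes there, and it was -0.17 when the reference was the average of siNC and siTAZ. AMOTL2 and NF2, both described as feedback targets, lay on opposite sides of the control after TAZ knockdown, NF2 by less than 1.5-fold. Whether feedback had a part in either reading was not tested.

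WWC1 encodes KIBRA, a WW-domain scaffold that works with NF2 upstream of LATS. It read 8.06 with siNC and 7.84 on both knockdown arrays, whose values were identical to the last deposited digit. The difference from control was -0.22 in each (85.9% of the control), which 13.8% of kept genes matched or passed in size on the siTAZ array and 9.94% on the siYAP array. With the average of siNC and the other knockdown as reference, the difference was -0.11 in each, which the identical knockdown values fix by arithmetic. That identity was not read as an equal WWC1 level in both knockdowns, since 53.9% of kept genes had identical siTAZ and siYAP values. The control value of WWC1 was also held by 5 other probe sets. An identical siTAZ and siYAP value that differed from siNC was found in 12.8% of kept genes.

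**Figure D2:**
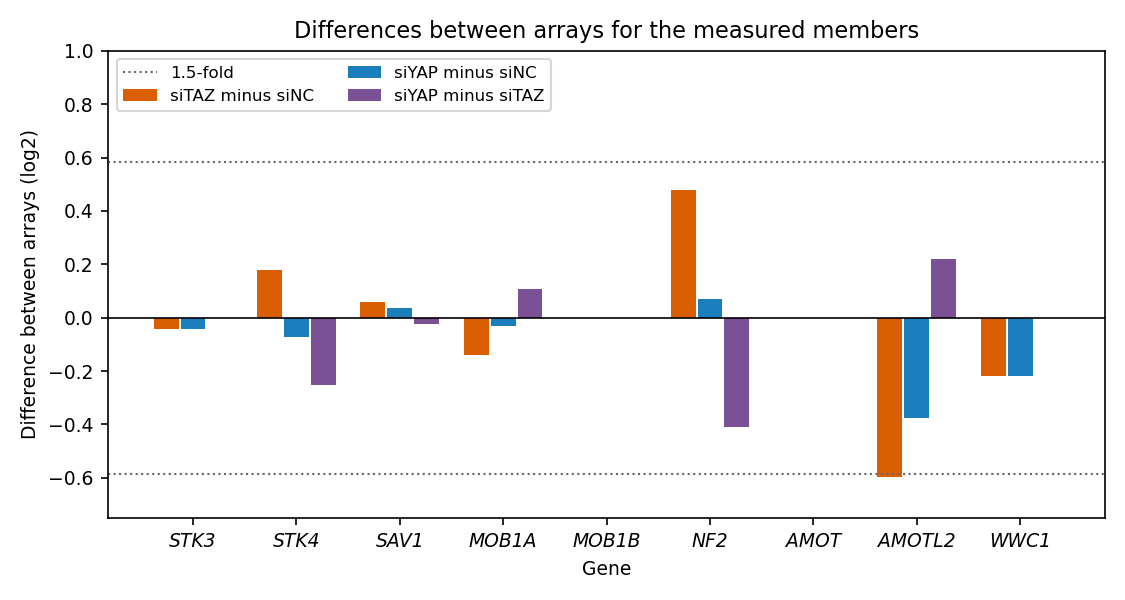
Differences between arrays (log2, vertical axis) for the 9 measured genes: siTAZ minus siNC, siYAP minus siNC and siYAP minus siTAZ, with dotted lines at 1.5-fold. AMOTL2 crosses the lower line with siTAZ (-0.60), NF2 reaches 0.48 with siTAZ, and MOB1B and AMOT have no bar because their values were identical on the 3 arrays.

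The MST kinase genes showed small differences. STK4, which encodes MST1, read 7.79 with siNC, 7.97 with siTAZ and 7.72 with siYAP. It differed from the control by 0.18 with siTAZ and -0.071 with siYAP, on either side of it by amounts that 17.5% and 29.3% of kept genes matched or passed. STK3, which encodes MST2, read 4.48 with siNC and 4.44 on both knockdown arrays, a difference of -0.044. Its mean was 0.18 above the filter level, so STK3 was dim here. SAV1, the WW-domain scaffold that holds the MST kinases, read 6.66, 6.72 and 6.69 with siNC, siTAZ and siYAP, a range of 0.058 over the 3 arrays.

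The MOB1 adaptors bind and activate the LATS kinases. MOB1A read 9.31, 9.17 and 9.28 with siNC, siTAZ and siYAP, and differed from the control by -0.14 with siTAZ and -0.033 with siYAP. MOB1B read 5.38 on all 3 arrays, a value that 7 other probe sets also held on all 3. MOB1A and MOB1B encode near-identical proteins, and whether their probe sets share signal was not tested. LATS1, the kinase that these adaptors serve, has no value here, and neither does its paralogue LATS2, so no named probe set read the LATS kinases.

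Identical values were common on these arrays. Of the 9 measured genes, MOB1B and AMOT had the same value on all 3 arrays, and STK3 and WWC1 had the same value on both knockdown arrays. Over the kept genes 41.1% had the same value on all 3 arrays, against 1 of the 8 kept members (12.5%). That share was 60.8% in the dimmest of 3 equal bins of kept genes by mean level, 42.6% in the middle bin and 19.8% in the brightest, and the kept members fell 2, 2 and 4 into these bins. On the control array 62.0% of probe sets shared their value with at least 1 other probe set. A difference of 0 on these arrays was therefore not read as a stable level.

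**Figure D3:**
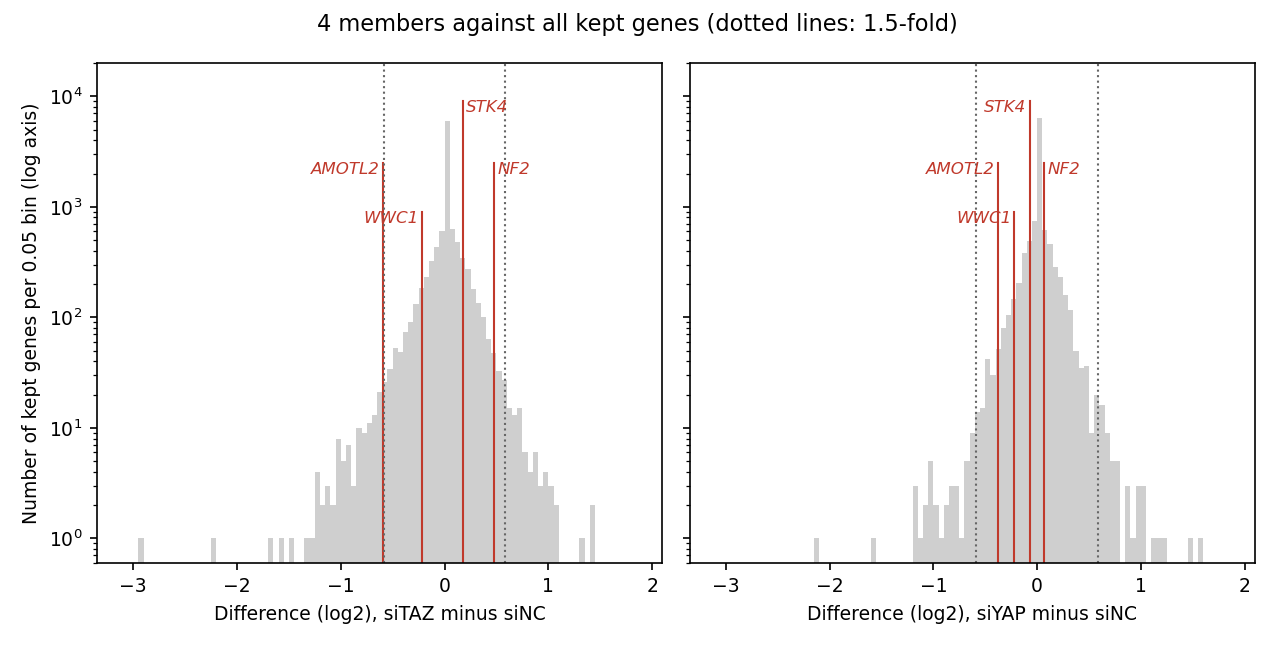
Number of kept genes (log axis) by their difference from the control array (log2, bins of 0.05) for siTAZ (left) and siYAP (right), with red lines (of no meaningful height) at AMOTL2, NF2, WWC1 and STK4 and dotted lines at 1.5-fold. AMOTL2 lies at -0.60 and -0.38 in the lower tail and NF2 at 0.48 and 0.068.

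The direct difference between the knockdown arrays does not subtract the control. Of the 8 kept members 0 were past 1.5-fold in it, against 0.176% (lower) and 0.566% (higher) of kept genes. NF2 lay at -0.41 with siYAP relative to siTAZ (75.2% of the siTAZ level), which ranked 59 from the lowest of 10768 kept genes. STK4 followed at -0.25, rank 262 from the lowest. AMOTL2 at 0.22 and MOB1A at 0.11 were higher with siYAP, and SAV1 lay at -0.024. STK3, MOB1B and WWC1 had identical values on the 2 arrays. NF2 was thus the member that separated the knockdowns most, at a size that 1.89% of kept genes matched or passed.

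The genes around the core were read from 4 lists of other Hippo pathway genes, 88 in all, of which 58 were named and 56 kept. At 1.5-fold, 2 of the 56 were lower and 1 higher on the siTAZ array, and 2 were lower and 0 higher on the siYAP array. The shares over all kept genes were 1.02% lower and 0.762% higher with siTAZ, and 0.381% lower and 0.52% higher with siYAP. The lower genes were PARD6B in both and the siRNA's own target, WWTR1 or YAP1, and the higher gene was SFN. The median over the 56 genes was 0 in both comparisons.

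Of 18 other kinases and MOB proteins 14 were kept and 0 were past 1.5-fold in either comparison. TAOK1, which encodes a kinase that activates the MST kinases, lay at -0.28 with siTAZ, the largest difference of the list on that array, and at -0.20 with siYAP. Its paralogues TAOK2 (0.21 and 0.12) and TAOK3 (0.19 in both) lay above the control. STK38L, which encodes a kinase of the LATS-related NDR group, was identical to the control with siTAZ and 0.21 above it with siYAP, the largest difference of the list on that array.

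Of 25 apical, junctional and polarity genes 16 were kept and 1 was past 1.5-fold, in both comparisons. This was PARD6B, a subunit of the apical Par polarity complex, which read 8.80 with siNC, 7.74 with siTAZ and 7.76 with siYAP. The atypical cadherin gene FAT1 lay at -0.45 and -0.42, the polarity gene LLGL1 at 0.45 and 0.34, and the WWC1 paralogue WWC3 at 0.33 and -0.022. The other WWC1 paralogue, WWC2, lay at -0.23 in both comparisons, its siTAZ and siYAP values being identical like those of WWC1 (-0.22). Such identity off the control value was held by 12.8% of kept genes, so it was not read as a trait of the paralogues. AMOTL1, the third angiomotin, had the same value on all 3 arrays.

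Of 27 further regulators, among them LIM-domain, RASSF and ubiquitin ligase genes, 16 were kept and 0 were past 1.5-fold. AJUBA, a LIM-domain protein that binds and inhibits LATS kinases, read 6.996, 6.48 and 6.65 with siNC, siTAZ and siYAP, or -0.51 and -0.35. These differences had the same order as those of AMOTL2, with the lower reading on the siTAZ array. RASSF3 (-0.31 and -0.30) and RASSF2 (-0.22 and -0.28), which encode RASSF proteins of the family that binds MST kinases, followed, and the ubiquitin ligase gene SIAH2 lay at 0.093 and 0. The list's 5 lower, 2 higher and 9 identical genes on the siTAZ array stood beside 21.7% lower and 29.7% higher among all kept genes.

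Of 18 downstream genes 10 were kept. Besides YAP1 and WWTR1, SFN, a 14-3-3 protein gene, was 1.55-fold higher with siTAZ and 1.48-fold higher with siYAP. FBXW11, an F-box gene of the ligase that marks phosphorylated YAP and TAZ for breakdown, lay at -0.46 with siTAZ and -0.043 with siYAP.

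**Figure D4:**
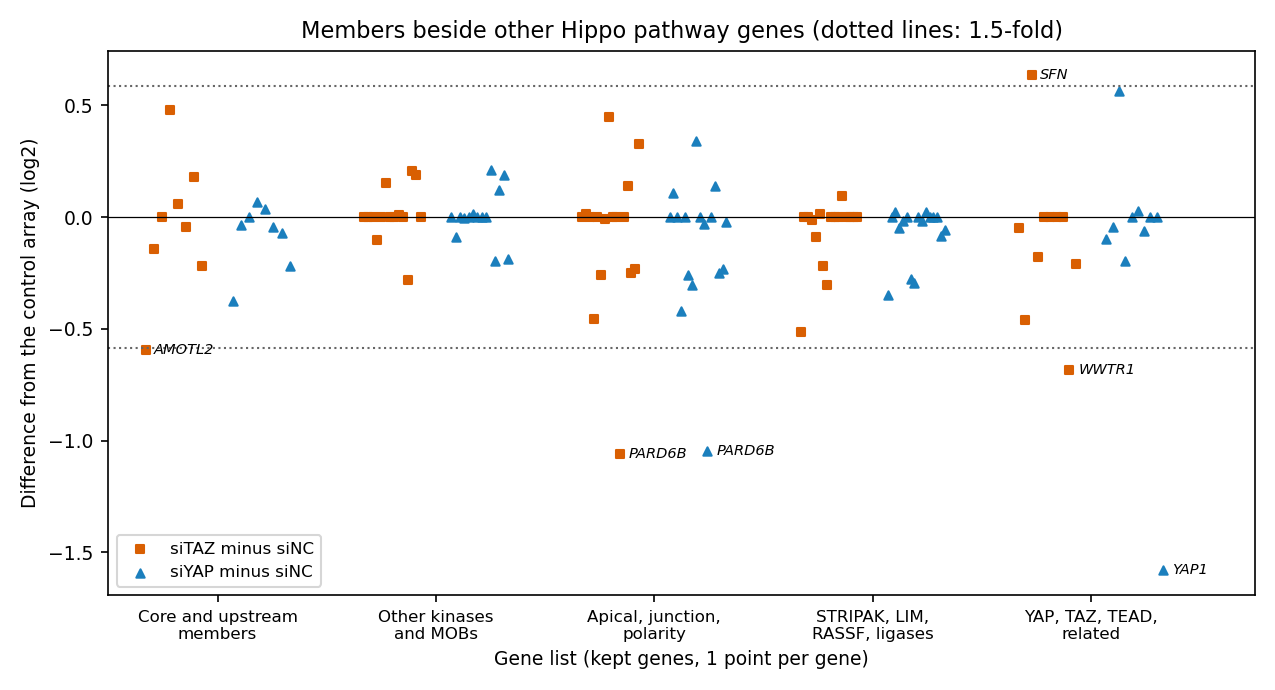
Difference from the control array (log2, vertical axis) for each kept gene of the 10 core and upstream genes and of the 4 other pathway lists, siTAZ as squares and siYAP as triangles, with dotted lines at 1.5-fold. AMOTL2, PARD6B, WWTR1, YAP1 and SFN are the genes named as past the lines, and most other points lie near 0.

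Genes with a pattern like that of AMOTL2 were sought among all kept genes by the distance between their pairs of differences from the control, over 3 arrays. The nearest were NRP2, a co-receptor for semaphorins and VEGF, at -0.59 and -0.39 (distance 0.014), S100A3, a calcium-binding protein gene, at -0.57 and -0.36 (distance 0.030), and SUSD1 at -0.55 and -0.39 (distance 0.052). In all 18 kept genes lay within 0.1 of AMOTL2. No other member was past 1.5-fold in any comparison, so none was matched in this way.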

How the data were processed

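Total RNA (500 ng) from A549 cells (3 samples) was labelled and hybridised to 1-colour Affymetrix whole-transcript arrays, per the labels' protocols. The authors summarised the arrays with RMA, per the submitters' processing notes; for its version and for the build behind the array's annotation, the entry is: not given in the sources used here. Deposited values were taken as log2 because of their range. Quantile normalization, a step of RMA, makes each value relative to its array.

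Symbols came from the platform annotation (16098 of 53617 probe sets; the other 37519 were unnamed), and all Entrez identifiers matched RefSeq (GRCh38.p14). The brightest probe set stood for a gene. Genes with a mean of at least 4.27 were kept. With 1 array per group, differences of log2 values were described with no test, and genes were counted at 1.5-fold. Python 3.11.15, pandas 2.3.3 and statsmodels 0.14.6 were used. The members and lists were chosen with earlier results of these data known. Named genes were the members, YAP1, WWTR1, up to 4 genes per list with the largest difference from the control, and the 3 genes nearest AMOTL2; other names (WWC2, AMOTL1, the cell type markers, LATS2) were chosen after values were seen. The alternatives left the filter out or set it at the 75th percentile, averaged a gene's probe sets, shifted each comparison to a median of 0, subtracted a loess trend with span 0.4, repeated the quantile normalization, or took another reference.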

Additional observations from a re-analysis of the deposited data

How the results depend on the processing

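Of 7 alternatives, 1 altered the count of members past 1.5-fold: with the average of siNC and the other knockdown in the place of siNC alone, 0 members were past it on the siTAZ array, where AMOTL2 lay at -0.41. That reference also moved AMOTL2 on the siYAP array to -0.078, WWC1 to -0.11 in both comparisons and NF2 on the siYAP array to -0.17, the other side of 0 from its 0.068, and MOB1A there lay at 0.038 in place of -0.033. This reference contains the other knockdown, so it compares different arrays. Its values follow by arithmetic from the levels already given and are no separate check of the processing. Of the other 6 alternatives, only the loess trend and the repeated quantile normalization could alter a kept member's own difference. Under these, the differences of the kept members moved by less than 0.1, and AMOTL2 on the siTAZ array stayed past 1.5-fold. The filters, the averaging and the median shift left these differences unaltered by construction. Each member had 1 probe set, and the median of each comparison was already 0. STK3 and MOB1B had no value under the 75th percentile filter. No member had over 1 probe set. No paired analysis was possible because each group had 1 array, and depth does not apply to arrays: signal over background and the single array per group limit the precision.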
